A study of Mus musculus with 2 samples.

Results

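Erythroid priming genes are genes of the red cell programme that are already transcribed, often at low levels, in hematopoietic stem cells (HSCs), before a cell commits to the lineage. The 9 genes described here were *Car1*, *Car2*, *Klf1*, *Gata1*, *Epor*, *Alas2*, *Hemgn*, *Ermap* and *Tfrc*. They were picked by symbol, and all 9 were found among the 24421 gene symbols listed.

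Red cell formation is driven by the transcription factor GATA1, which binds GATA motifs, and by KLF1, which binds CACCC motifs in globin genes and in many other erythroid genes. Erythropoietin, acting through its receptor, keeps committed progenitors alive. Transferrin receptor brings in iron for heme, whose erythroid synthesis starts with ALAS2. EZH2 is the main methyltransferase of Polycomb repressive complex 2, which places the repressive mark H3K27me3 on many lineage genes.

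RNA-seq was performed on HSCs of C57BL/6 background, in 1 library labelled WT and 1 library labelled Ezh2 KO. Both genotypes carried CreERT+/-, a recombinase that becomes active with tamoxifen and whose driving promoter the labels do not give, together with Ezh2 +/+ or with floxed *Ezh2* that is labelled Δ/Δ after deletion. CD45.2 marrow of either genotype was transplanted into lethally irradiated CD45.1 mice, and both groups belong to a protocol with tamoxifen given daily for 5 days (100 µl at 10 mg/ml) and a sort of CD150+CD48-CD34-Flt3- cells of the Lin-Sca-1+c-Kit+ fraction 1 month later. The age of the mice and the number pooled per library are not in the labels. There was no replicate, so no difference given here has a replicate check, and a test on the reads compares these 2 libraries and not the genotypes.

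Depth was 5763118 gene counts for WT and 4157280 for the library labelled Ezh2 KO, so 3 counts, taken as the floor, correspond to 0.521 and 0.722 CPM (counts scaled to a common library total). Levels are given as normalised counts, meaning counts divided by a size factor of 1.17 for WT and 0.858 for the other library. *Ezh2* itself had 166 and 129 counts, or 142.5 and 150.3 normalised counts, and counts over the whole gene do not show whether the floxed part was lost. HSC identity transcripts were present in both libraries. Of 14 HSC markers 0 were called different at the 2-fold threshold, but 10 lay below 0, and *Slamf1*, which encodes the CD150 of the sort, had 446.2 and 289.0 normalised counts (adjusted p = 2.81e-07 by the exact binomial test). *Fgd5*, *Esam* and *Ctnnal1* were also lower past the p threshold and under 2-fold, and *Ly6a* was higher in that way. RNAs that mark the sex of the donor moved with the genotype labels: the 4 Y-linked genes tested had 0 counts in WT and 106 to 275 in the other library, while *Xist* had 801 and 4. Genotype and donor sex therefore cannot be told apart in any value below.

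The proximal promoters of the erythroid genes are shown first, because *Gata1* and *Klf1* belong to the group and their products bind short motifs in such regions. RefSeq windows on GRCm38.p6, from 250 bases before to 50 bases after the transcription start, were found for 7 of the 9 genes. A GATA motif, spelled as AGATAA or AGATAG or TGATAA or TGATAG on either strand, was present in 5 of the 7, against 29.8% of the 32851 promoter windows of the table. A CACCC motif, spelled as CCACACCC or CCACGCCC or CCCCACCC or CCCCGCCC on either strand, was present in 4 of the 7, against 29.7% of all windows. These counts describe letters in the windows and not binding.

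The 150 bases upstream of the start are given for the 5 promoters with a GATA motif, so that genes that were higher in the library labelled Ezh2 KO can be read beside genes that were not. Capitals mark GATA and CACCC motifs, on either strand, and each sequence reads 5′ to 3′ on the strand of the gene. The stretches are chr8:84901832-84901981 (plus strand), chr9:21963577-21963726 (minus), chrX:150547267-150547416 (plus), chr4:46404184-46404333 (minus) and chr4:119189996-119190145 (minus).
Klf1 promoter: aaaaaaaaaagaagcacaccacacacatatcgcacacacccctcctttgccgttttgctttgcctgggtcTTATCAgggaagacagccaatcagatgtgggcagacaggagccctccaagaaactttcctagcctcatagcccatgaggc
Epor promoter: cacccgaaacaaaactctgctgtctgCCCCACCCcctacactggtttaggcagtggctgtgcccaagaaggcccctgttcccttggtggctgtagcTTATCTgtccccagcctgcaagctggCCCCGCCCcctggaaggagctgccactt
Alas2 promoter: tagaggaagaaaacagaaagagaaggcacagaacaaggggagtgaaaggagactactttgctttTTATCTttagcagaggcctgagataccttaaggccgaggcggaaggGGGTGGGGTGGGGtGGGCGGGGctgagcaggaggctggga
Hemgn promoter: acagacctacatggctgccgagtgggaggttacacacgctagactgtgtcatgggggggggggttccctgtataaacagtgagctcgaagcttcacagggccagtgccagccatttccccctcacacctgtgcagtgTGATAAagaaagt
Ermap promoter: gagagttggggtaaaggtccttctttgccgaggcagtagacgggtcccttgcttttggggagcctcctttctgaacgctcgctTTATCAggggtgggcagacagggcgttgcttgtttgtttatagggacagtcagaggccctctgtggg

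The upstream GATA motif began 80 bases before the start in *Klf1*, 54 in *Epor*, 86 in *Alas2*, 13 in *Hemgn* and 67 in *Ermap*. The window of *Hemgn* held another, which began at base 29 counted from the start and lies outside the printed stretch. Of the 7 genes with a window, *Epor* and *Alas2* held both motifs. *Klf1*, *Hemgn* and *Ermap* held the GATA letters alone, and *Gata1* and *Tfrc* held CACCC letters alone.

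The comparison asked which erythroid genes differed between HSCs labelled Ezh2 KO and WT. Of the 9 genes, *Car1*, *Klf1* and *Ermap* were higher in the library labelled Ezh2 KO, by 4.18-fold, 2.48-fold and 2.18-fold, and 0 were called lower. *Epor* and *Tfrc* stood close to the threshold of 2-fold and an adjusted p of 0.01. *Gata1* and *Alas2* were nearly level, the abundant *Car2* was 1.18-fold higher, and *Hemgn* was 1.46-fold higher in WT. Over all 12588 genes tested, 2.8% were called higher and 2.3% lower. The median log2 ratio of the 9 genes was 0.96, against -0.00317 over all genes tested, and 7 of the 9 lay above 0, as did 6244 of the 12588. Since the 9 genes were chosen with earlier results of these data known, this is a description of them. When an assumed spread between libraries (coefficient of variation 0.2) was put into the test, *Car1* alone of the 9 was called, and at 0.4 none was, with *Car1* alone at an unadjusted p below 0.05 in edgeR's exact test. *Ermap* was not called when the deeper library was thinned to the depth of the other, whereas *Tfrc* then was. In bulk RNA, more cells that carry a transcript and more of it per cell cannot be told apart.

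**Figure D1:**
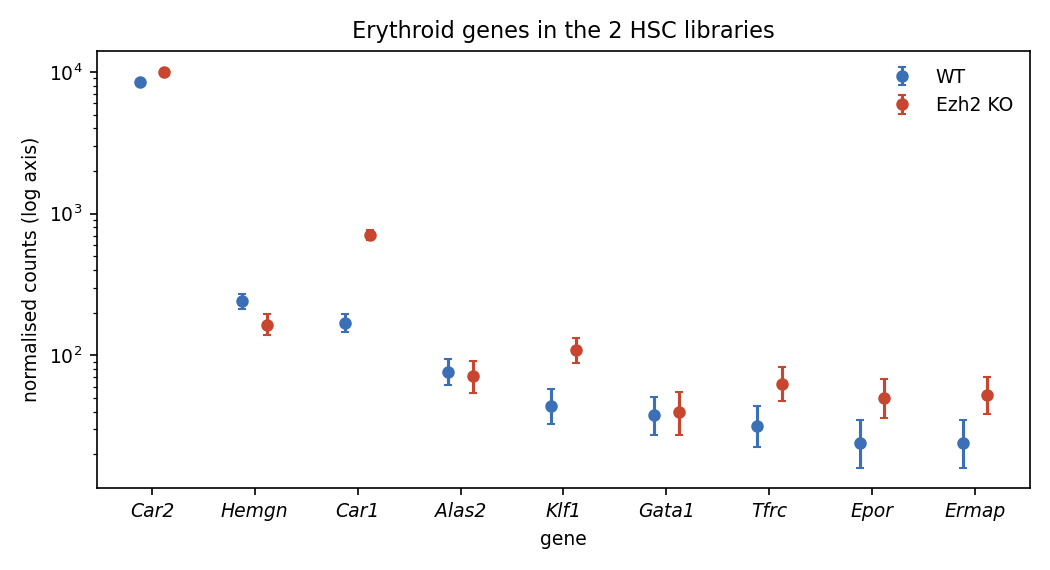
Normalised counts (log axis) of the 9 genes in the WT library (blue) and the library labelled Ezh2 KO (red), ordered by the WT level. Bars are exact 95% Poisson intervals, which cover counting error only. The intervals of the 2 libraries lie apart for *Car1*, *Car2*, *Klf1*, *Ermap*, *Epor* and *Tfrc*, all higher in the library labelled Ezh2 KO, and for *Hemgn*, lower there.

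*Car1* and *Car2* encode carbonic anhydrases, the enzymes that interconvert CO2 and bicarbonate and that are among the most abundant proteins of the red cell after hemoglobin. *Car1* (ENSMUSG00000027556, protein coding, mm10 chromosome 3, 14766216 to 14808368, minus strand) rose from 197 WT counts to 607 counts in the library labelled Ezh2 KO, which are 169.1 and 707.3 normalised counts. Values are given in this order, WT first, from here on. This was the largest difference of the group, with a log2 ratio of 2.06 (exact 95% interval 1.83 to 2.30, adjusted p = 4.25e-78 by the exact binomial test with Benjamini-Hochberg adjustment). Of the 60-base words in its transcripts, 10.2% also occur in a transcript of the gene *Gm5843*, so its count is uncertain by reads that both genes share.

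*Car2* (ENSMUSG00000027562, chromosome 3, 14886273 to 14900770, plus strand) lies near *Car1* on the same chromosome. It had 9875 and 8590 counts, or 8474 and 10010 normalised counts, a log2 ratio of 0.24 (0.20 to 0.28). At this depth the difference passed the exact binomial test (adjusted p = 3.98e-27) but not the fold threshold. *Car2* took most of the reads of the group, and *Car1* differed far more. Within a library, where scaling has no part, the counts of *Car1* for each count of *Car2* went from 0.01995 to 0.0707, which is 3.54 times as many (exact 95% interval 3.003 to 4.192).

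The transcription factors did not move together. *Klf1* (ENSMUSG00000054191, chromosome 8, 84901928 to 84905291, plus strand), an activator of adult globin and red cell membrane genes, had 51 and 93 counts, or 43.8 and 108.4 normalised counts. Its log2 ratio was 1.29 (0.80 to 1.83), with an adjusted p of 2.23e-06 by the exact binomial test. *Gata1* (ENSMUSG00000031162, chromosome X, 7959260 to 7978071, minus strand), which is needed in erythroid, megakaryocytic, mast cell and eosinophil lineages, had 44 and 34 counts, or 37.8 and 39.6 normalised counts. The log2 ratio of *Gata1* was 0.07, and its interval of -0.62 to 0.75 runs from 0.65-fold to 1.68-fold. No difference was detected, and counting error at this depth leaves ratios over that range possible. For each count of *Gata1* there were 1.16 and 2.735 counts of *Klf1*, a change of 2.35 times (1.29 to 4.31). *Gata1* is X-linked, and the 410 X-linked genes tested had a median log2 ratio of -0.03.

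*Hemgn* (ENSMUSG00000028332, chromosome 4, 46393989 to 46413506, minus strand), a nuclear protein of hematopoietic progenitors, went the other way. Its 280 and 141 counts are 240.3 and 164.3 normalised counts. On the log2 scale its ratio was -0.55 (-0.85 to -0.25), which passed the exact binomial test (adjusted p = 0.00147) but fell short of 2-fold. With the deeper library thinned, the ratio was -0.40 and the adjusted p of that exact test was 0.052. It was the 1 gene of the group with an interval wholly below 0.

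Both receptors had about 2 times the level in the library labelled Ezh2 KO, at low counts. *Epor* (ENSMUSG00000006235, chromosome 9, 21958897 to 21963506, minus strand), the erythropoietin receptor, had 28 and 43 counts, or 24.0 and 50.1 normalised counts. Its log2 ratio of 1.03 (0.34 to 1.80) came with an adjusted p of 0.0115 by the exact binomial test, just outside the threshold. *Tfrc* (ENSMUSG00000022797, chromosome 16, 32608920 to 32632794, plus strand), the receptor that takes up transferrin-bound iron, had 37 and 54 counts, or 31.8 and 62.9 normalised counts. Its adjusted p was 0.00694 by the same exact test, and its log2 ratio of 0.96 (0.36 to 1.63) was just under 2-fold. *Ermap* (ENSMUSG00000028644, chromosome 4, 119175457 to 119190011, minus strand), a membrane protein of the immunoglobulin superfamily that carries a blood group antigen, was just inside both thresholds. It had 28 and 45 counts, or 24.0 and 52.4 normalised counts, with a log2 ratio of 1.09 (0.41 to 1.86) and an adjusted p of 0.00642 by the exact binomial test. The 3 genes thus had almost the same ratio, and their intervals overlapped over most of their length.

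*Alas2* (ENSMUSG00000025270, chromosome X, 150547375 to 150570638, plus strand), the erythroid enzyme of the first step of heme synthesis, had 89 and 61 counts, or 76.4 and 71.1 normalised counts. This gives a log2 ratio of -0.10 (-0.60 to 0.38), and no difference was detected. In the GENCODE annotation 15.5% of its exonic bases are shared with *Mir3620* and with *Apex2*, which lies on the other strand, and the use of strand in counting is not given in the sources used here. Reads of *Alas2* and *Apex2* therefore cannot be told apart over the stretch they share, and *Apex2* had 53 and 11 counts.

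**Figure D2:**
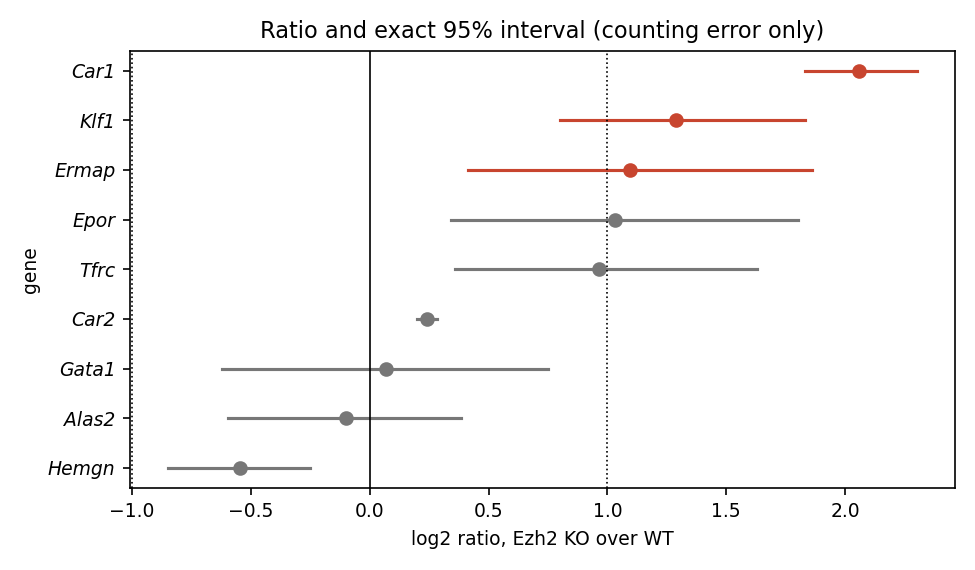
Log2 ratio of the library labelled Ezh2 KO over WT for the 9 genes (points) with exact 95% intervals for counting error (bars). Red marks genes called higher, grey marks genes not called, and dotted lines mark 2-fold; *Car1* stands above the others at 2.06, *Hemgn* lies lowest at -0.55, and the intervals of *Gata1* and *Alas2* span 0.

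Ratios of genes with few counts scatter widely, so the group was set beside genes of like abundance. Of the 9 genes, 6 had a mean of 25 to 100 normalised counts, and 3 of these (*Klf1*, *Epor* and *Ermap*) were at least 2-fold higher by ratio alone. Of the 2622 genes tested in that range, 6.48% were at least 2-fold higher and 5.91% at least 2-fold lower. The plot of all genes tested shows this scatter, and the 9 genes at their own abundance within it.

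**Figure D3:**
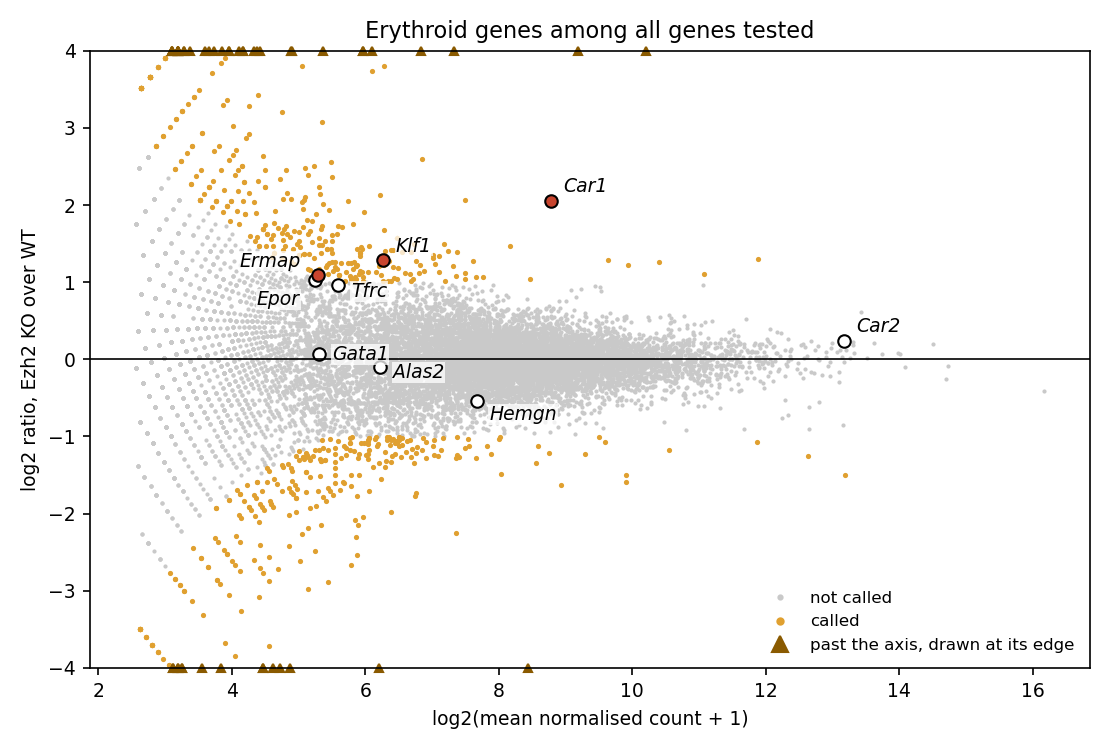
Log2 ratio of the library labelled Ezh2 KO over WT against log2 of the mean normalised count plus 1 for all genes tested (grey, not called; orange, called). The 9 genes are circled, filled red where called higher, and the 50 genes beyond a log2 ratio of 4 in either direction are drawn as triangles at the edge. The scatter widens toward low counts, where 6 of the 9 genes lie, and *Car1* stands at 2.06.

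To compare levels between genes, normalised counts were divided by the length of all exons of a gene in kilobases (kb). In WT the order of levels per kb was *Car2* (3499), *Car1* (136), *Hemgn* (95.7), *Alas2* (31.8), *Klf1* (28.6), *Gata1* (15.5), *Epor* (12.1), *Tfrc* (5.13) and *Ermap* (4.54). Neighbours in this order that did not differ beyond counting error were *Alas2* and *Klf1*, *Gata1* and *Epor*, and *Tfrc* and *Ermap*. The other library gave the order *Car2* (4133), *Car1* (567), *Klf1* (70.8), *Hemgn* (65.4), *Alas2* (29.6), *Epor* (25.2), *Gata1* (16.3), *Tfrc* (10.2) and *Ermap* (9.90). There *Klf1* and *Hemgn*, *Alas2* and *Epor*, *Epor* and *Gata1*, and *Tfrc* and *Ermap* did not differ beyond counting error. The 9 levels in WT thus spanned from rank 34 (*Car2*) to rank 10729 (*Ermap*) of 23334 genes. From WT to the other library *Car2* moved from rank 34 to rank 28, *Car1* from rank 2295 to rank 396, and *Klf1* from 6935 to 4050.

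Together the 9 genes took 0.184% of WT gene counts (95% Wilson interval 0.181% to 0.188%) and 0.233% of those labelled Ezh2 KO (0.228% to 0.237%). Most of this was *Car2*. Without *Car2*, the other 8 genes summed to 647 and 1256 normalised counts, a ratio of 1.94. When *Car1* was left out as well, the sums were 478 and 549 and the ratio was 1.15, so among the 8 genes most of the added counts were those of *Car1*.

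The wider erythroid programme was then examined with 6 gene lists, which contain some of the 9 genes. Their counts stand beside the 2.8% called higher and 2.3% called lower over all genes. Of 24 erythroid transcription factors and cofactors tested, 2 were called higher and 0 lower, with a median log2 ratio of 0.06. Besides *Klf1* this was *E2f2*, a cell-cycle factor used in terminal erythroid divisions, with 34.3 and 80.4 normalised counts. *Tal1*, a partner of GATA1 in its DNA-bound complex, had 242.9 and 226.1 normalised counts and was not called. The levels of *Gata2*, the GATA factor that precedes *Gata1* in HSCs, were 3716 and 3699 normalised counts.

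Of 19 genes of heme synthesis, transport and breakdown, 1 was called higher and 0 lower, with a median log2 ratio of -0.05. It was *Hmox1*, which degrades heme and makes none, with 139.9 and 293.7 normalised counts. *Alas1*, the form of ALAS found in all cells, had 369.9 and 437.0 normalised counts and was not called. Of 15 iron genes tested, 1 was called higher and 1 lower, with a median of -0.07. The higher gene was *Slc40a1*, the iron exporter ferroportin, with 42.1 and 113.0 normalised counts, and the lower gene was *Hfe*, a regulator of iron sensing, with 83.2 and 35.0. *Tfr2*, the second transferrin receptor, was far more abundant than *Tfrc* in both libraries, at 1188 and 1116 normalised counts. The count of *Tfrc* relative to *Tfr2* was 2.11 times as high in the library labelled Ezh2 KO (1.35 to 3.32).

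Among red cell membrane and blood group genes, 5 of 26 tested were called higher and 1 lower, with a median log2 ratio of 0.29. The higher genes included *Ermap*, *Add2*, *Epb4.2* and *Rhd*, the last of which falls outside the rule for named genes and was named after its value was seen. *Epb4.2*, the gene of red cell protein 4.2, had 1 and 27 counts, so its WT count lay under the floor of 3. Its log2 ratio was 4.13 with 1 added to each normalised count, and its exact 95% interval, without that addition, was 2.60 to 10.55. *Add2*, which encodes a subunit of adducin, had 0 and 19 counts, at least 8.6-fold higher against a floor of 3 counts in the WT library. *Rhd*, a blood group protein, had 19 and 46 counts. These genes were low in WT, and *Ermap* had the smallest log2 ratio of the 4. *Slc4a1*, the anion exchanger band 3, had 39 counts in each library (log2 ratio 0.43, -0.24 to 1.12) and was not called.

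All 10 globin genes found were listed at 0 in both libraries. Several are near-identical copies, and how reads with several alignments were counted is not given in the sources used here, so no level is drawn from these values.

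Of 18 genes of erythropoietin signalling, 0 were called higher and 1 lower, with a median log2 ratio of -0.04. The lower gene was *Socs3*, an inhibitor induced by the pathway, with 310.6 and 142.2 normalised counts. *Jak2*, the kinase bound to the receptor, had 531.2 and 573.3 and was not called, and the log2 ratio of *Epor*, 1.03, was the highest of the list.

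**Figure D4:**
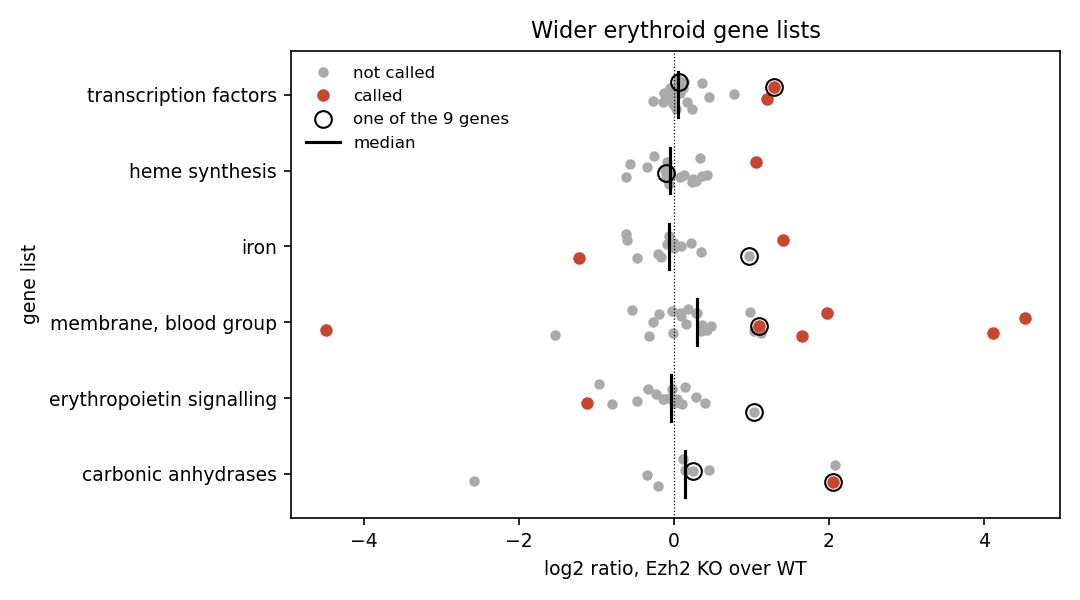
Log2 ratio of the library labelled Ezh2 KO over WT for each gene tested in the 5 lists above that had genes tested and in the carbonic anhydrases (points; red, called; grey, not called), with the list median as a black line. Circles mark 8 of the 9 genes, since *Hemgn* is in none of these lists. Medians lie between -0.07 and 0.29, and called genes are most numerous among membrane and blood group genes, with 5 higher and 1 lower of 26. The vertical scatter carries no value.

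Markers of other blood cells also differed between the libraries. Of 8 eosinophil markers tested, a lineage that also uses *Gata1*, 7 were called higher, and the list of 12 summed to 30.9 and 3856 normalised counts. Of the 12, 7 had 0 counts in WT, so most genes tested passed the filter of 1 CPM only through the library labelled Ezh2 KO. Genes low in both libraries were not tested, so the share called higher is partly set by that filter. *Prg2* had 0 and 2030 counts and *Epx* 0 and 1000. Of 15 neutrophil markers 7 were called higher, summing to 11010 and 20211 normalised counts, with *Ngp* at 2187 and 5385 and *S100a8* at 1369 and 2947. In that list 12 genes lay above 0. Below 0 lay *Elane* (738 and 435.8 normalised counts, log2 ratio -0.76), *Prtn3* (-0.07) and *Ctsg* (-0.01). Of 6 B cell markers tested 5 were called higher, and the list of 12 summed to 242.9 and 490.6 normalised counts. *Cd79a* was at 18.0 and 61.8 normalised counts and *Vpreb1* at 4.29 and 47.8, while *Rag1* and *Rag2* were at 0 in both libraries. Of the 12, 7 had 0 counts in WT, and some of these were tested only through the other library, so the same limit holds for this share.

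Megakaryocytes and mast cells use GATA factors as red cells do. Megakaryocyte markers had 1 of 17 genes called higher and 2 lower, and summed to 13766 and 12739 normalised counts. The higher gene was *Mfsd2b*, at 43.8 and 102.5 normalised counts. The lower ones were *Vwf*, at 1439 and 478.9 normalised counts, and *Itgb3*, at 345.8 and 167.8, both genes of platelet adhesion. Of 5 mast cell and basophil markers tested, 1 was called higher, *Prss34* with 0 and 9 counts, *Ms4a2* was at 0 in both libraries, and the list summed to 3790 and 3791 normalised counts, nearly all of it *Gata2*. Of the surface proteins that the sort selected against, all 4 tested lay above 0 and 1 was called higher, *Itgam* with 73 and 131 counts. *Flt3* had 84.1 and 163.1 normalised counts and *Cd34* had 821.2 and 966.0, with adjusted p of 8.46e-06 and 0.00387 by the exact binomial test and ratios under 2-fold. The part of such cells in the values of *Car1*, *Klf1* and *Ermap* was not tested.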

How the data were processed

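RNA of sorted HSCs was amplified as full-length cDNA with a SMARTer kit, sheared and sequenced as single reads, 1 library per genotype. The authors deposited raw, unnormalised read counts for each gene symbol. Per the study's methods, reads were aligned to mm10 with TopHat2 2.0.13 and Bowtie2 2.1.0 with gene models from iGenomes, and the counts are ascribed to StringTie. The 5 closing entries of each file name no gene, carry htseq-count names and were left out of totals and tests. Their share was 56.1% for WT and 56.9% for Ezh2 KO.

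The members and gene lists were chosen with earlier results of these data known. Size factors came from DESeq2 1.42.0 in R 4.3.3 (median of ratios). With 1 library per group, edgeR and DESeq2 have no replicates from which to estimate a spread. Each of the 12588 genes that averaged 1 CPM or more was instead given an exact two-sided binomial test of its 2 counts, with Benjamini-Hochberg adjustment over all of them. A gene was called at an adjusted p below 0.01 and at least 2-fold on log2(normalised count + 1), and folds given as such carry no pseudocount. Intervals on ratios are exact 95% Clopper-Pearson intervals without a pseudocount, whereas the log2 ratios carry it. They cover the counting error of reads alone. Amplified reads that carry no molecular identifier can be copies of 1 molecule, so these intervals can be too narrow for the counting error of molecules. The changes in ratios of 2 genes within a library are instead conditional odds ratios with exact 95% intervals, under the same limits of counting error. The procedure was tested on simulated data with Poisson error only and planted changes larger than the 2-fold threshold. That simulation held no spread between libraries, so it cannot show how the calls behave under such spread.

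Positions, exon lengths and overlaps came from GENCODE M21 on GRCm38, the assembly of mm10, in which 23334 of 24421 symbols matched 1 gene. Epb42, Epb41 and Flvcr1 were found under older symbols, and Ahsp was not analysed here. Some results of the gene lists are not reported here. Named genes were the 9 members, *Ezh2*, up to 4 called genes per erythroid list (or the 2 most abundant where none was called), late erythroid markers, and the 2 most abundant called genes of each list of other cell types. *Tal1*, *Gata2*, *Alas1*, *Tfr2*, *Jak2*, *Apex2*, *Xist*, *Rag1*, *Rag2*, *Ms4a2*, *Elane*, *Prtn3*, *Ctsg*, *Flt3*, *Cd34* and the HSC markers were added after values were seen. The range of 25 to 100 normalised counts and the ratios of 2 genes within a library were also chosen then, and 6 such ratios were computed. Those not given above had intervals that spanned no change. *Epor* over *Gata1* changed 1.98 times (0.98 to 4.03), *Hemgn* over *Gata1* 0.65 times (0.39 to 1.10) and *Alas2* over *Alas1* 0.79 times (0.54 to 1.14). Alternatives were TMM (edgeR 4.0.16) and total-count scaling, other pseudocounts, filters and folds, thinning of the deeper library, leaving out X and Y genes, and edgeR's exact test with an assumed coefficient of variation (CV). Calculations used Python 3.11.15, numpy 2.4.6, scipy 1.17.1 and matplotlib 3.10.9.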

Additional observations from a re-analysis of the deposited data

How the results depend on the processing

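No paired analysis was possible because the design holds 1 library of either genotype. None of the 9 ratios changed sign under other scalings or thinning, nor did the 7 that are not X-linked when X and Y genes were left out; the filters, fold thresholds and assumed CVs leave a ratio as it is. Over 12 alternatives *Car1* ranged from 2.002 to 2.088 on the log2 scale and was called in 11 of 12, *Klf1* from 1.22 to 1.45 and in 9. *Ermap* (0.98 to 1.12) was called in 6 of the 11 that tested it, and not with a pseudocount of 5 or with the deeper library thinned. *Tfrc* (0.89 to 1.18) was called in 2, with thinning and at 1.5-fold, and *Epor* (0.92 to 1.06) in 1, total-count scaling.

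The assumed spread between libraries mattered most. With an assumed CV of 0.2, 1 of the 9 genes was called higher (*Car1*), against 41 higher and 22 lower over all genes. With a CV of 0.4, edgeR's exact test called 0 of the 9, against 8 higher and 2 lower over all genes; 1 of the 9 (*Car1*) had an unadjusted p below 0.05, as did 271 genes in all. A 4-fold threshold left 1 of the 9, with 169 higher and 96 lower over all genes, and a 1.5-fold threshold gave 626 and 636. With a minimum of 10 CPM the numbers were 96 and 115, and the 5 members left had a median log2 ratio of 0.24, in place of 0.96, because *Gata1*, *Epor*, *Ermap* and *Tfrc* were no longer tested. The main values over all genes were 353 and 290. Depth limits the 6 genes under 100 normalised counts on average most.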

Other observations

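Carbonic anhydrases other than *Car1* and *Car2* had at most 111 counts in these HSCs, and the genes named here were chosen after their values were seen. Of 16 family members listed, 9 were tested, 1 was called higher (*Car1*) and 0 lower. *Car9*, a membrane enzyme known for its induction by hypoxia, had 75 and 76 counts, in the order WT and Ezh2 KO, and *Car5b*, a mitochondrial form, had 111 and 64. *Car13*, a cytosolic enzyme, had 47 and 30 counts. *Car8*, which has lost the catalytic activity of the family, had 14 and 1 counts, and *Car7* had 2 and 9. None of these passed the adjusted threshold of the exact binomial test. *Car4*, *Car5a*, *Car6* and *Car10* had 0 counts in both libraries.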
